A study of Mus musculus with 32 samples.

Results

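The genes described here are 39 genes of glucose breakdown and of the response to low oxygen, out of 54446 genes counted in 32 mouse liver tumours. They were chosen by name, with no threshold on a measured value. By role they were 3 membrane transporters of glucose or lactate (Slc2a1, Slc2a3, Slc16a3), 15 glycolytic enzymes (Hk1, Hk2, Gpi1, Pfkl, Pfkp, Aldoa, Aldoc, Tpi1, Gapdh, Pgk1, Pgam1, Eno1, Eno2, Pkm, Ldha), 3 regulators of glycolysis (Pfkfb3, Pfkfb4, Pdk1) and 18 other hypoxia targets (Car9, Car12, Bnip3, Bnip3l, Ndrg1, Egln1, Egln3, Ankrd37, P4ha1, P4ha2, Adm, Ero1l, Ddit4, Mxi1, Kdm3a, Higd1a, Hif1a, Lox). Hif1a, which encodes the oxygen-regulated subunit of the transcription factor HIF itself, was kept with the last list.

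Glycolysis splits glucose into pyruvate, and lactate dehydrogenase turns pyruvate into lactate when oxygen is short or when a tumour favours this route. Cells sense oxygen through prolyl hydroxylases, which mark the HIF transcription factors for destruction while oxygen is present. When oxygen falls, HIF builds up and switches on genes of glucose uptake, glycolysis, pH control, mitochondrial turnover, collagen modification and vessel growth.

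Tumours were grown from BNL-MEA cells, a mouse hepatocellular carcinoma line, placed in the livers of BALB/c mice. All groups therefore share 1 cell line and 1 mouse strain, and each library came from bulk tumour tissue that also holds host cells. The age of the mice was not given in the labels. Regorafenib, an oral inhibitor of several kinases that include the VEGF receptors, was given at 5 mg/kg/day (low dose) or 20 mg/kg/day (high dose). The experiments are the batches p112, p103 and p101 of the labels. The dose experiment (p112, 10 libraries) had 4 vehicle, 3 low dose and 3 high dose tumours. The DC-101 experiment (p103, 10 libraries) had 4 vehicle tumours, 3 low dose tumours and 3 tumours of mice given DC-101, an antibody that blocks the mouse VEGF receptor 2, at 800 µg into the peritoneum on days 1, 3 and 5. The anti-PD1 experiment (p101, 12 libraries) had 3 tumours each of vehicle, the low dose, an antibody to the checkpoint receptor PD1 (anti-PD1), and the low dose with anti-PD1 (combination). Nothing in the labels says more of the replicates than that they are separate samples, so p-values measure the spread between these samples.

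Total counts were between 16.8 M and 27.7 M per library, and the scaling factors of the trimmed mean of M-values method (TMM) were between 0.678 and 1.10. The lowest factor was that of high dose replicate 1, which also had the largest share of mitochondrial counts (5.37%), followed by high dose replicate 2 (2.86%), against 1.84% to 2.31% in the vehicle tumours of the same experiment. The part of this share in the high dose results was not tested. All 39 genes passed the filter on low counts in every experiment, with counts from 26 (Car12) to 64433 (Gapdh) in a library. Levels are given as log2 CPM, the log2 of counts scaled to a TMM-adjusted library total within an experiment (CPM), and changes as the log2 difference of 2 groups with its standard error (SE). A gene was called when its adjusted p was below 0.05 over all genes tested. In bulk tumours, fewer cells of a type and less RNA per cell cannot be told apart.

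HIF binds DNA at a short core, ACGTG or GCGTG. RefSeq windows (GRCm38.p6) from 250 bases before to 50 bases after the transcription start were used for 35 of the 39 genes. Slc2a3, Bnip3l and Ndrg1 had no window matched, and Lox was left out with its chromosome. Of the 35, 31 (88.6%) held at least 1 such core on either strand, against 46.7% of 27025 genes, where that chromosome was kept. By list this was 12 of the 15 enzymes (80.0%), 14 of 15 other hypoxia targets (93.3%), 3 of 3 regulators and 2 of 2 transporters. Such a match describes the letters of the window and is not a bound site. The 250 bases before the start are printed 5′ to 3′ on the gene's strand for 4 genes, namely the 3 other hypoxia targets with high dose calls that are described first and Pgk1, a glycolytic enzyme that was not called, with the cores and their reverse complements (CACGT and CACGC) in capitals. The Bnip3 window holds 5 cores, some of which overlap, so that they show as 4 runs of capitals.
Adm, chr7:110627407-110627656, plus strand: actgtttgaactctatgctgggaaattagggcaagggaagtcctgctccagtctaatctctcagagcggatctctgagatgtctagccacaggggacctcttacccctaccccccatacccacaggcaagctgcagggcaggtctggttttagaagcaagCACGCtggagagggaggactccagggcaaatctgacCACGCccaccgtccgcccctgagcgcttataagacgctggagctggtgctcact
Egln3, chr12:54203875-54204124, minus strand: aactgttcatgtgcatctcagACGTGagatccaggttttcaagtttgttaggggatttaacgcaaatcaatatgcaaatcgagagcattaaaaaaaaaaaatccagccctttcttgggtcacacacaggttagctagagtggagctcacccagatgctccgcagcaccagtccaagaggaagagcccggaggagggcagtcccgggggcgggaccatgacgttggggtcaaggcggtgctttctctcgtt
Bnip3, chr7:138909507-138909756, minus strand: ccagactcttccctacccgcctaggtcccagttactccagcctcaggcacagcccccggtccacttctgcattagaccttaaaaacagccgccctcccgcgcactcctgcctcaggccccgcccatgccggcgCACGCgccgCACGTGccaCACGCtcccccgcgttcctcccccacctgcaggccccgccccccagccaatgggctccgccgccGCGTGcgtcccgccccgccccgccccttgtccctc
Pgk1, chrX:106186850-106187099, plus strand: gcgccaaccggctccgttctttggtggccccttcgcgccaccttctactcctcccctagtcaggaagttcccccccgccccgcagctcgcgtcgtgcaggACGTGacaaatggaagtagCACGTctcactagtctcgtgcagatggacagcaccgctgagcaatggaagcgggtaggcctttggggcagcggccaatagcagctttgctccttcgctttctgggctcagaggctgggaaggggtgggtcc
The enzyme Pgk1 thus carried 2 cores, as Adm did, while Egln3 carried 1.

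In vehicle tumours of the dose experiment, enzymes of glycolysis led these messages in level per length. On the scale of log2 CPM per kilobase of exon, Gapdh stood first at 8.54, followed by Aldoa at 8.11, Pgk1 at 8.06, Tpi1 at 8.03, Ldha at 8.02 and Pkm at 7.96. The first gene outside the enzymes was Lox, which encodes an enzyme that cross-links collagen, at 7.46. Egln3, the oxygen-sensing prolyl hydroxylase, stood at 2.27, and the lowest were Aldoc at 0.48 and Slc2a3 at 0.24. The order differed in the vehicle tumours of the DC-101 and anti-PD1 experiments, where Aldoa ranked 1. There Gapdh ranked 6 in each (7.36 and 7.69), below Lox, and Pgk1 ranked 9 and 10.

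The dose experiment asked how the high dose differs from the low dose. At the high dose, 7 of the 39 genes rose against vehicle and none fell, a share of 17.9%, while 15.6% of all 16525 genes tested were called and 8.80% were called higher. The share of these genes that was called is thus close to that of all genes. DESeq2 called 16 of the 39 genes and 5275 of all 16525, and among its 16 were Slc2a3 and Slc16a3, both lower at the high dose. Fewer of the 39 were called with voom, scaling by total count or no filter, and none with the groups compared alone or a replicate block. Over all genes these fits called 1349, 283, 416, 4 and 1. The 7 called by edgeR were Adm, Aldoc, Egln3, P4ha2, Higd1a, Bnip3 and Pdk1. Against the low dose, 10 genes rose and none fell by edgeR, while 4.22% of all genes were called and 1.74% were called higher. DESeq2 called 18, of which Pfkfb4 was lower, and 3059 of all 16525 genes. None of the 39 was called with the groups compared alone or a replicate block, where 0 and 1 of all genes were. Under scaling by total count alone, the 196 genes called over the whole table were 57 higher and 139 lower, while TMM scaling gave 288 higher and 409 lower. The 2 comparisons share the high dose tumours and are not independent of each other.

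**Figure D1:**
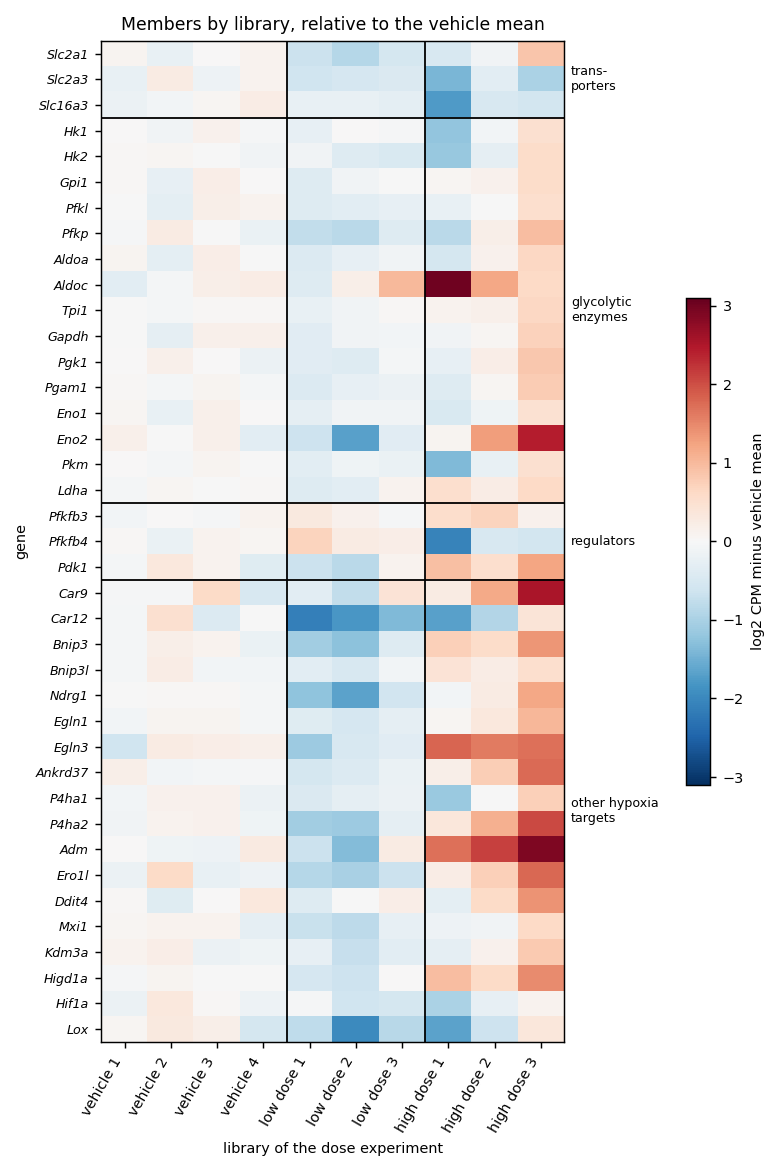
Log2 CPM of each of the 39 genes (rows) in each of the 10 tumours of the dose experiment (columns), as the difference from the mean of the 4 vehicle tumours (colour scale, log2). High dose replicate 3 is the highest of the 10 tumours for 31 genes, and low dose replicate 2 is the lowest for 17.

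Adm encodes adrenomedullin, a peptide that widens vessels. Its levels were 3.51, 3.38, 3.33 and 3.79 in the vehicle tumours, 2.83, 2.16 and 3.76 at the low dose and 5.20, 5.63 and 6.41 at the high dose. All 3 high dose tumours lay above every other tumour, and the low dose overlapped vehicle. The log2 change was 2.33 ± 0.39 against vehicle, a 5.02-fold difference (edgeR adjusted p = 0.0225), and 2.78 ± 0.44 against the low dose (edgeR adjusted p = 0.0167).

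Egln3, a hydroxylase that is itself switched on by HIF, had the smallest p of the 39 genes in both comparisons. It stood at 3.07, 3.94, 3.90 and 3.84 in vehicle tumours, 2.56, 3.19 and 3.34 at the low dose and 5.49, 5.29 and 5.39 at the high dose. The high dose tumours were close together and separate from both other groups. The log2 change was 1.67 ± 0.25 against vehicle (3.19-fold, edgeR adjusted p = 0.0182) and 2.34 ± 0.28 against the low dose (5.05-fold, edgeR adjusted p = 0.00678).

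Bnip3 and Bnip3l encode receptors on mitochondria that mark them for removal. Bnip3 measured 7.91, 8.14, 8.07 and 7.75 in vehicle, 6.90, 6.70 and 7.58 at the low dose and 8.71, 8.55 and 9.33 at the high dose, so that the low dose lay below and the high dose above all vehicle tumours. It rose by 0.93 ± 0.25 against vehicle (edgeR adjusted p = 0.0452) and by 1.79 ± 0.28 against the low dose (edgeR adjusted p = 0.0157). Its relative Bnip3l had 6.69, 6.97, 6.65 and 6.65 in vehicle, 6.40, 6.25 and 6.66 at the low dose and 7.16, 6.97 and 7.25 at the high dose, every high dose tumour being at or above the highest vehicle tumour. Bnip3l rose against the low dose, by 0.68 ± 0.15 (edgeR adjusted p = 0.0439), while its change of 0.39 ± 0.14 against vehicle missed the threshold (edgeR adjusted p = 0.0766). Higd1a, a small protein of the inner mitochondrial membrane, measured 5.20, 5.31, 5.21 and 5.21 in vehicle, 4.72, 4.59 and 5.25 at the low dose and 6.18, 5.83 and 6.69 at the high dose. It rose by 1.05 ± 0.22 against vehicle (edgeR adjusted p = 0.032) and by 1.40 ± 0.24 against the low dose (edgeR adjusted p = 0.0199), with the high dose above all other tumours. Near-identical sequence in other annotated genes was found for all 3 of these genes, and how reads of such copies were counted makes their counts uncertain.

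P4ha2 encodes a subunit of the collagen prolyl hydroxylase and Ero1l an enzyme that forms disulfide bonds in the endoplasmic reticulum. P4ha2 had levels of 5.08, 5.32, 5.33 and 5.05 in vehicle, 4.13, 4.08 and 4.91 at the low dose and 5.55, 6.31 and 7.24 at the high dose. It rose by 1.33 ± 0.36 against vehicle (edgeR adjusted p = 0.0449) and by 2.11 ± 0.40 against the low dose (edgeR adjusted p = 0.0285), and neither comparison had overlapping groups. Ero1l had 6.57, 7.34, 6.52 and 6.59 in vehicle, 5.88, 5.74 and 6.08 at the low dose and 6.99, 7.50 and 8.53 at the high dose. Its high dose tumours overlapped 1 vehicle tumour, replicate 2, and lay above all low dose tumours, so that it rose against the low dose by 1.92 ± 0.39 (edgeR adjusted p = 0.0347) and was not called against vehicle (1.02 ± 0.35, edgeR adjusted p = 0.0642). Ndrg1, a stress response gene, showed the same order with 8.99, 9.05, 9.03 and 8.93 in vehicle, 7.75, 7.35 and 8.40 at the low dose and 8.93, 9.25 and 10.20 at the high dose. Against the low dose it rose by 1.67 ± 0.35 (edgeR adjusted p = 0.0389), and against vehicle the change was 0.57 ± 0.32 (edgeR adjusted p = 0.214).

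**Figure D2:**
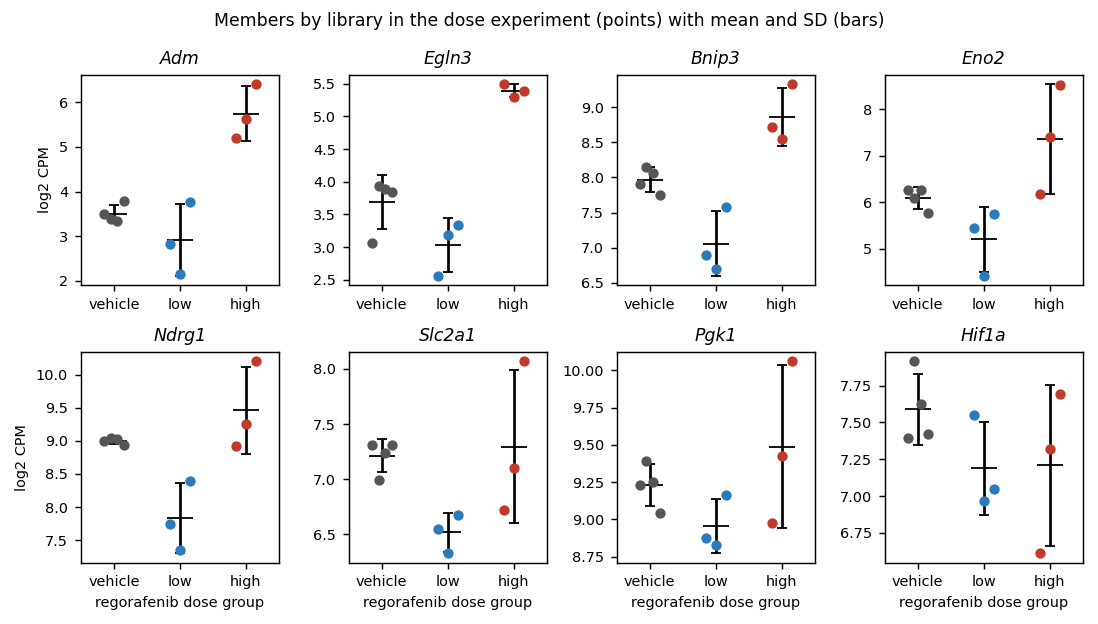
Log2 CPM (vertical axis) of 8 genes in each tumour of the dose experiment (points) by group, with the group mean as a dash and bars for 1 SD. The high dose tumours of Adm, Egln3 and Bnip3 lie above every vehicle tumour, while those of Slc2a1, Pgk1 and Hif1a overlap vehicle.

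The other members of this list were less uniform. Car9, a carbonic anhydrase on the cell surface, measured 5.37, 5.38, 6.0 and 4.91 in vehicle, 5.08, 4.64 and 5.84 at the low dose and 5.68, 6.58 and 7.95 at the high dose. The high dose tumours spanned more than 2 log2 units and the lowest of them overlapped vehicle, and the change of 1.57 ± 0.51 was not called (edgeR adjusted p = 0.0572). Car12, the related anhydrase, was 5.68, 6.25, 5.33 and 5.73 in vehicle and 3.63, 3.95 and 4.37 at the low dose, and 4.08, 4.83 and 6.14 at the high dose, without a call in either high dose comparison. Hif1a had 7.40, 7.91, 7.62 and 7.42 in vehicle, 7.55, 6.97 and 7.05 at the low dose and 6.61, 7.32 and 7.69 at the high dose. Its log2 change was −0.33 ± 0.26 against vehicle and 0.06 ± 0.28 between the doses, and neither was called (edgeR adjusted p = 0.372 and 0.892). HIF is controlled mainly through the stability of its protein, which was not measured here.

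Among the 15 glycolytic enzymes, edgeR called 1 in each comparison, Aldoc against vehicle and Eno2 against the low dose, while DESeq2 called Aldoc, Eno2 and Ldha higher in both. Aldoc, an aldolase of brain and other tissues, stood at 1.87, 2.12, 2.36 and 2.41 in vehicle, 1.79, 2.38 and 3.18 at the low dose and 5.20, 3.38 and 2.81 at the high dose. It rose against vehicle by 1.98 ± 0.56 (edgeR adjusted p = 0.0467), and the change of 1.62 ± 0.60 against the low dose was not called (edgeR adjusted p = 0.127). High dose replicate 1, the highest for Aldoc, was also the tumour with the most hepatocyte message, as given below. Without that tumour the Aldoc change was 0.94, without high dose replicate 3 it was 2.30, and Aldoc was called in 2 of the 10 fits that left out 1 tumour. Eno2, an enolase isoform known from neurons, had 6.26, 6.09, 6.26 and 5.77 in vehicle, 5.46, 4.42 and 5.75 at the low dose and 6.17, 7.40 and 8.52 at the high dose. It rose against the low dose by 2.35 ± 0.55 (5.11-fold, edgeR adjusted p = 0.0478), while high dose replicate 1 lay inside the vehicle range and the change of 1.56 ± 0.49 against vehicle was not called (edgeR adjusted p = 0.0535).

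The abundant enzymes of the pathway were not called by edgeR in either high dose comparison. Ldha, lactate dehydrogenase A, was 9.69, 9.80, 9.73 and 9.78 in vehicle, 9.36, 9.43 and 9.85 at the low dose and 10.27, 9.99 and 10.37 at the high dose. Although the high dose did not overlap vehicle, its change of 0.47 ± 0.16 missed the threshold (edgeR adjusted p = 0.0667). Pgk1, which makes ATP from bisphosphoglycerate, was 9.23, 9.39, 9.25 and 9.04 in vehicle, 8.88, 8.83 and 9.16 at the low dose and 8.97, 9.43 and 10.06 at the high dose, with a change of 0.32 ± 0.24 against vehicle (edgeR adjusted p = 0.334). For Gapdh the levels were 10.57, 10.30, 10.75 and 10.74 in vehicle, 10.23, 10.49 and 10.49 at the low dose and 10.49, 10.66 and 11.30 at the high dose, with a change of 0.26 ± 0.22 (edgeR adjusted p = 0.395). Both genes overlapped between high dose and vehicle. Hk2, the inducible hexokinase that traps glucose in the cell, was 6.17, 6.20, 6.11 and 6.03 in vehicle, 6.02, 5.73 and 5.64 at the low dose and 4.95, 5.84 and 6.68 at the high dose, and its change of −0.13 ± 0.32 against vehicle was within the spread (edgeR adjusted p = 0.784). Among all enzymes the change against vehicle ran from −0.19 (Pkm) to 1.98 (Aldoc). Copies of near-identical sequence were also found for Gapdh (78), Pgk1 (4), Ldha (4), Eno1 (3) and Pkm (2), whose counts are uncertain in the same way.

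Pdk1, the kinase that holds pyruvate back from the mitochondria, was the 1 regulator that edgeR called, while DESeq2 also called Pfkfb3 higher against vehicle. It measured 5.68, 6.07, 5.86 and 5.38 in vehicle, 5.08, 4.91 and 5.85 at the low dose and 6.69, 6.26 and 6.97 at the high dose, and rose by 0.90 ± 0.27 against vehicle (edgeR adjusted p = 0.0497) and 1.33 ± 0.29 against the low dose (edgeR adjusted p = 0.0419). Pfkfb4, an enzyme that sets the level of the phosphofructokinase activator, had the opposite order, with 4.67, 4.42, 4.74 and 4.69 in vehicle, 5.33, 4.88 and 4.83 at the low dose and 2.56, 4.14 and 4.05 at the high dose. None of these 3 groups overlapped, but neither the change of −0.90 ± 0.34 against vehicle nor that of −1.29 ± 0.36 against the low dose was called (edgeR adjusted p = 0.0822 and 0.074). Pfkfb4 was called lower than at the low dose by DESeq2 and in 2 of the 10 fits that left out 1 tumour, those without high dose replicate 1 or 3. No transporter was called by edgeR in either high dose comparison. Slc2a1, the main glucose transporter of many tumours, was 7.31, 6.99, 7.23 and 7.31 in vehicle, 6.54, 6.33 and 6.68 at the low dose and 6.72, 7.10 and 8.07 at the high dose. DESeq2 called it higher against the low dose, the only 1 of 9 other settings that did. Slc2a3 and the lactate exporter Slc16a3 were below every vehicle tumour at the high dose, with changes of −0.86 ± 0.28 and −0.84 ± 0.28 (edgeR adjusted p = 0.0596 and 0.0598). Each was called lower by DESeq2 and in 1 of the 10 fits that left out 1 tumour, Slc2a3 without high dose replicate 2 and Slc16a3 without high dose replicate 3.

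**Figure D3:**
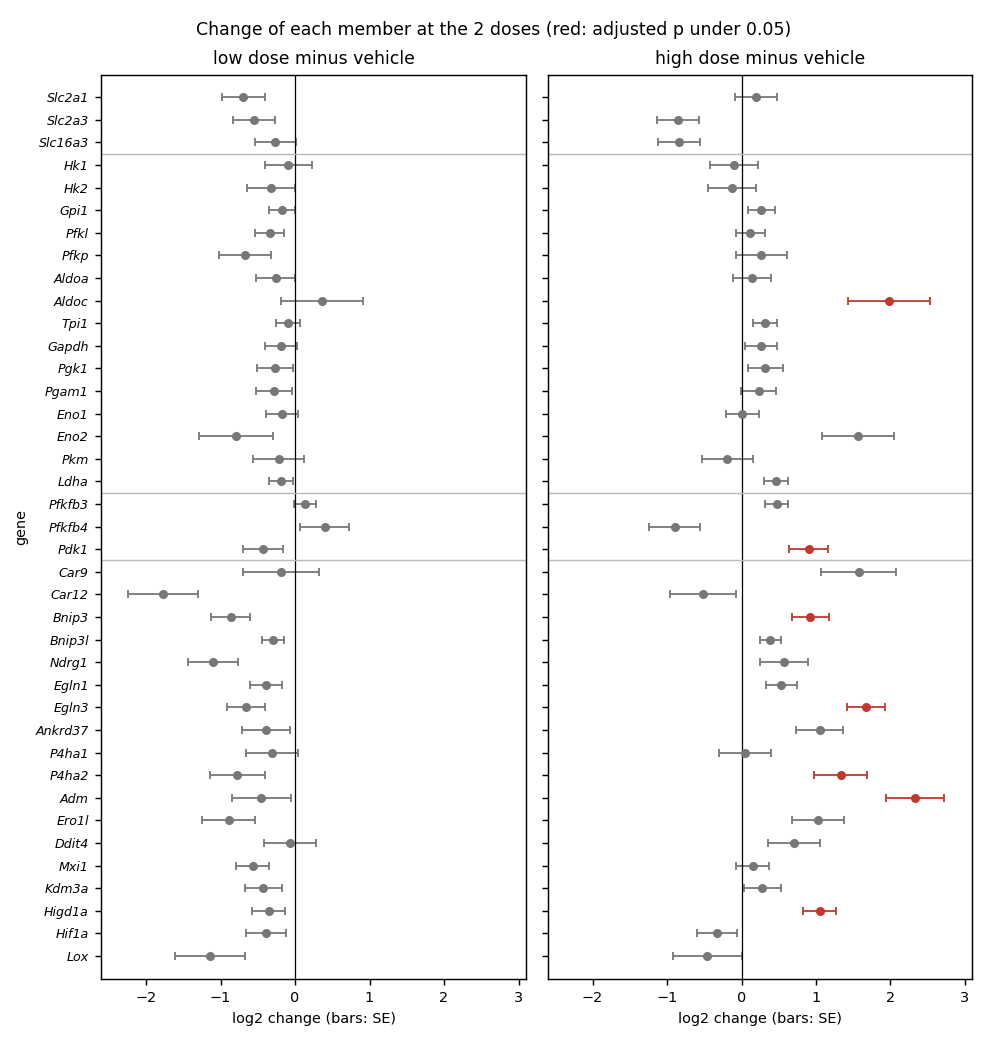
Log2 change against vehicle (horizontal axis) of the 39 genes in the dose experiment, low dose and high dose in separate panels, with bars for 1 SE and called changes in red. No gene is called at the low dose, and 7 are called at the high dose, all above 0.

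Set side by side, the lists had different medians. The median log2 change at the high dose against vehicle was 0.26 for the 15 enzymes and 0.64 for the 18 other hypoxia targets, with 1 and 5 of them called, while the median over all genes tested was 0.02. Leaving out 1 tumour at a time moved the enzyme median between −0.17 and 0.44 and that of the other targets between 0.22 and 0.94, so that the sign for the enzymes depended on single tumours. Against the low dose the medians were 0.45 and 1.33, with 1 of 15 and 8 of 18 called, and 0.07 over all genes. Without high dose replicate 3 these medians were 0.17 and 0.71, and without high dose replicate 1 they were 0.63 and 1.57. Separation between groups was also counted. Above all vehicle tumours at the high dose lay 12 of the 39 genes, namely 3 enzymes, 2 regulators and 7 other targets, against 11.8% of all genes. Above all low dose tumours lay 18, namely 1 transporter, 5 enzymes, 1 regulator and 11 other targets, against 11.6% of all genes. Below all vehicle tumours lay 3 (Pfkfb4, Slc16a3, Slc2a3), as did 2736 of all 16525 genes. Below all low dose tumours lay 2 (Pfkfb4, Slc16a3), as did 2683 of all 16525 genes. No test of the lists against each other was made, because the lists were chosen with results of these data known.

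By group means, 26 of the 39 genes had the low dose below and the high dose above vehicle, among them 10 of 15 enzymes and 14 of 18 other targets. Another 10 had both doses below vehicle, 2 had both above, and Pfkfb4 had the low dose above and the high dose below. The mean of the high dose was above that of the low dose for 34 of 39 genes, including all 18 other targets.

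At the low dose itself, no gene of the 39 was called by edgeR, as was the case for all genes tested (0%), although 8 of them had an unadjusted p under 0.05 while DESeq2 called 1, Car12, and voom 0. Over all 16525 genes, 817 had an unadjusted p under 0.05, DESeq2 called 85 and voom 0. The median change was −0.22 for enzymes and −0.44 for other targets, against 0.00 over all genes, and all 18 other targets had a change below 0. Car12 had the smallest p, with a change of −1.77 ± 0.47 (edgeR adjusted p = 0.738), and Bnip3 the next, with −0.87 ± 0.26 (edgeR adjusted p = 0.795). All 3 low dose tumours lay below every vehicle tumour for 17 of the 39 genes, against 6.99% of all genes, and they were 3 transporters, 5 enzymes and 9 other targets. Pfkfb4 was the 1 gene of the 39 above all vehicle tumours, where 1142 of all 16525 genes lay. Markers of other cell types differed in the same tumours. The mean log2 CPM of 12 endothelial markers was 4.22 to 5.10 in vehicle and 3.49 to 4.03 at the low dose, that of 8 T cell markers 0.35 to 1.33 and 1.38 to 1.75, and that of 10 macrophage markers 7.21 to 7.89 and 8.22 to 8.47, with no overlap and no call in any of these lists. Their part in the low dose values was not tested.

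The genes of the same pathways outside the 39 were read from 4 further lists. Against vehicle at the high dose, 4 of 15 tested genes of other glycolysis steps rose, among them Pklr (4.14 on the log2 scale), Pdk2 (2.53) and Pfkfb2 (0.82), and Bpgm fell by 1.12. Pklr encodes the pyruvate kinase of liver cells. Of 5 tested genes of oxygen sensing, Epas1, which encodes another HIF alpha subunit, rose by 2.29, and none of 4 genes of gluconeogenesis was called, 3 of them having an unadjusted p under 0.05, as had 6621 of all 16525 genes. Of 20 further hypoxia targets 5 rose, among them Pygl (3.72), Pgm1 (1.58), Ak4 (1.22) and Vegfa (1.12), and Tpd52 fell by 0.58. Against the low dose 5 rose as well, among them Nos2 (2.79), Vegfa (2.20), Ak4 (1.34) and Hmox1 (1.09), and Tpd52 fell by 0.69, while no gene of the other 3 lists was called. Vegfa encodes the vessel growth factor whose receptors regorafenib inhibits. None of the 4 lists had a called gene at the low dose, where no gene of the whole table was called. Of all 16525 genes, 1455 (8.8%) were called higher and 1127 lower at the high dose against vehicle. Against the low dose it was 288 (1.74%) and 409.

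Markers of other cell types also differed in the high dose tumours. Over a list of 24 hepatocyte markers the summed level was 1963 to 12153 CPM in vehicle, 3858 to 41160 at the low dose and 5402 to 151892 at the high dose, with 3 of 24 called higher against vehicle and none of the markers at 0. By tumour, the mean log2 CPM of these markers was 12.03, 9.65 and 6.85 in high dose replicates 1, 2 and 3. High dose replicate 3, which was highest for most of the hypoxia genes, thus had the lowest hepatocyte level of its group. Macrophage markers summed to 2824 to 4668 CPM in vehicle, 5821 to 7538 at the low dose and 957 to 2347 at the high dose, and 8 of 10 fell in either high dose comparison. Markers of cell division summed to 1601 to 2260, 1341 to 1831 and 251 to 1238 CPM, and 4 of 10 fell against vehicle. Of the other lists, 4 of 8 T cell markers rose and 2 of 12 endothelial and 1 of 6 tested erythrocyte markers fell against vehicle, and none of 9 neutrophil or 9 fibroblast markers was called. Beside these, 1455 of all 16525 genes were called higher and 1127 lower against vehicle, and 409 lower against the low dose. With the hepatocyte level as a term of the fit, 2 members were called against vehicle, Adm and Egln3, and 11 against the low dose, while 162 and 595 of all 16525 genes were called in the same fits. The part of the other cell types in these changes was not tested.

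The number of calls at the high dose changed when single tumours were left out. The counts over all genes in these fits are not given here. A move of the members therefore cannot be told from a move of the whole table. Leaving out 1 tumour of any group at a time gave 0 to 8 calls against vehicle, with 0 without vehicle replicate 3 or 4, 1 without vehicle replicate 1 or 2 or low dose replicate 1, 2 without low dose replicate 2, and 4 without high dose replicate 2. Against the low dose it gave 1 to 14, with 1 without low dose replicate 1 or 2, and 4 without vehicle replicate 1, 3 or 4. Egln3 was called in 8 of these 10 fits against vehicle and in 10 of 10 against the low dose, and Adm in 5 and 8. The other calls against vehicle were made less often, with Higd1a in 4 of 10, Aldoc and P4ha2 in 2 each, and Bnip3 and Pdk1 in 1 each. In the comparison of the doses, Bnip3 and Higd1a were called in 8 of 10, P4ha2 in 5, Ero1l in 4, Pdk1 and Ndrg1 in 3 each, and Eno2 and Bnip3l in 2 each. Without high dose replicate 3 the change against vehicle was 0.74 for P4ha2 and 0.61 for Bnip3. When the replicate number was added as a block, or when the groups compared were fitted alone, no member was called in either comparison. Over all genes these fits called 1 and 1 with the block, and 4 and 0 with the groups alone.

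In the DC-101 experiment the low dose was set against the antibody, which blocks a single VEGF receptor. None of the 39 genes was called by edgeR, DESeq2 or voom at the low dose, none had an unadjusted p under 0.05, and 0.0248% of all 16138 genes were called. Over all genes 2766 had an unadjusted p under 0.05, DESeq2 called 1097 and voom 4. The median change was 0.42 for enzymes, of which 15 of 15 were above 0, and 0.29 for other targets, of which 15 of 18 were. Leaving out 1 tumour moved these medians between 0.24 (without vehicle replicate 4) and 0.54 and between 0.13 (without low dose replicate 3) and 0.61 (without low dose replicate 1). Ldha stood at 9.98, 9.93, 9.69 and 8.80 in vehicle, 10.24, 10.25 and 10.51 at the low dose and 9.50, 9.58 and 10.37 with DC-101. The low dose did not overlap vehicle for Ldha, and its change was 0.67 ± 0.30 (edgeR adjusted p = 0.294). Kdm3a, a histone demethylase induced by HIF, measured 6.95, 7.17, 6.93 and 6.90 in vehicle, 6.37, 6.88 and 6.81 at the low dose and 6.48, 6.24 and 6.40 with DC-101. It was below all vehicle tumours in both treated groups, with changes of −0.29 ± 0.13 at the low dose and −0.61 ± 0.13 with DC-101 (edgeR adjusted p = 0.312 and 0.309). Without low dose replicate 1 the Kdm3a change at the low dose was −0.14. At the low dose 3 genes lay above all vehicle tumours (Aldoc, Ldha, Slc16a3), against 6.93% of all genes. Below them lay 1, Kdm3a, at the low dose and with DC-101, as did 1530 and 1322 of all 16138 genes. Both treated groups are set against the same 4 vehicle tumours. Of the 24 hepatocyte markers, 24 were above vehicle in fitted change at the low dose and 24 with DC-101, with medians of 3.1 and 3.46 and no call. The mean log2 CPM of 12 endothelial markers was 4.36 to 5.53 in vehicle, 3.42 to 3.83 at the low dose and 3.21 to 4.28 with DC-101, so that both treated groups lay below every vehicle tumour, with 11 of 12 markers below vehicle in each and no call. The part of these cell types in the values of the 39 genes was not tested.

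With DC-101, no member was called by edgeR, 1 had an unadjusted p under 0.05 and DESeq2 called 1, in both cases Kdm3a, voom called 0, and 0% of all genes were called. Over all 16138 genes, 2131 had an unadjusted p under 0.05, DESeq2 called 373 and voom 0. The medians were −0.13 for enzymes, a value that ran from −0.28 to 0.06 when 1 tumour was left out, and −0.23 for other targets, which ran from −0.57 to −0.06. Pfkfb3, a kinase that raises glycolytic flux, had a change of −0.81 ± 0.37 (edgeR adjusted p = 0.382), and it was −1.23 without DC-101 replicate 3. Egln3 was 4.85, 4.76, 4.31 and 4.38 in vehicle and 0.93, 2.24 and 4.45 with DC-101, a wide spread in which replicate 3 was inside the vehicle range and the other 2 tumours were below it. Adm had the same split, with 4.97, 5.18, 4.22 and 4.20 in vehicle, 3.94, 5.79 and 6.07 at the low dose and 1.83, 3.17 and 4.87 with DC-101. Slc2a1 was 8.25, 8.26, 7.74 and 6.70 in vehicle, 7.82, 8.73 and 8.58 at the low dose and 6.73, 6.32 and 8.36 with DC-101, overlapping throughout.

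The low dose and DC-101 were also compared directly, within the same experiment and with the same libraries. The change was above 0 for 38 of the 39 genes, with medians of 0.45 for enzymes and 0.52 for other targets, against −0.01 over all genes. Without DC-101 replicate 2 the medians were 0.27 and 0.34, and without DC-101 replicate 3 they were 0.67 and 0.93. None was called by edgeR, DESeq2 or voom, and 6 had an unadjusted p under 0.05, while 0% of all genes were called by edgeR. Of all 16138 genes, 1364 had an unadjusted p under 0.05, DESeq2 called 203 and voom 0. Pkm, the pyruvate kinase of tumours, had a change of 0.56 ± 0.21 (edgeR adjusted p = 0.526) and Ankrd37 of 1.13 ± 0.44 (edgeR adjusted p = 0.536). Together with Slc16a3 these were the 3 genes whose low dose tumours all lay above the DC-101 tumours, against 5.48% of all genes.

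**Figure D4:**
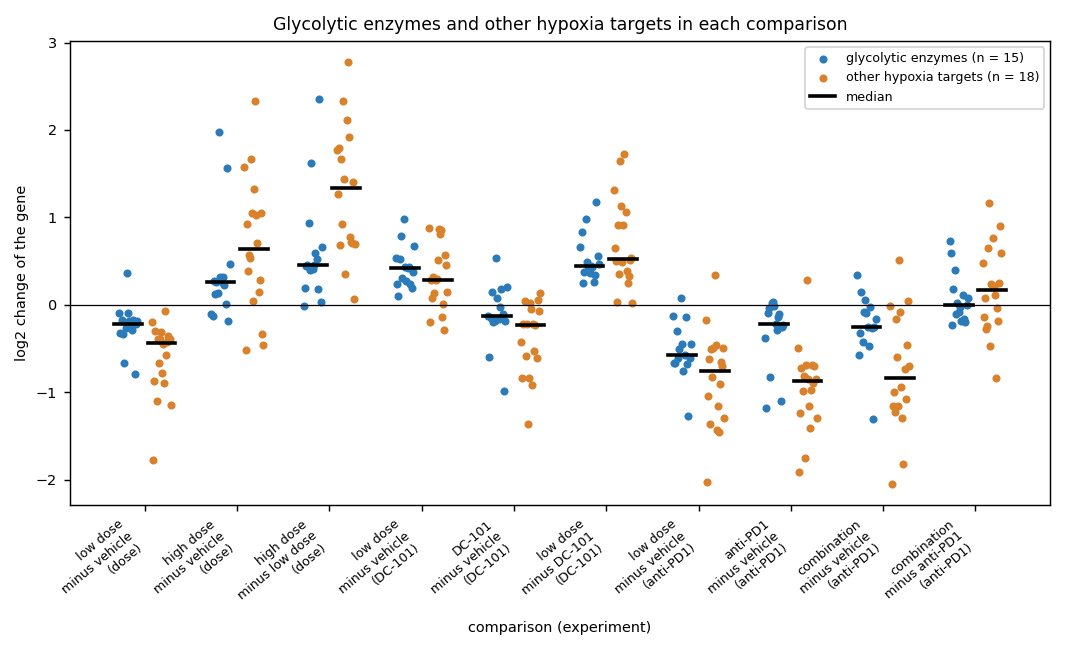
Log2 change (vertical axis) of each glycolytic enzyme and each other hypoxia target (points) in the 10 comparisons within an experiment, with the median of each list as a bar. The medians of the other targets are furthest from 0 in the comparison of the high with the low dose (1.33) and are below 0 in all 3 comparisons with vehicle of the anti-PD1 experiment.

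In the anti-PD1 experiment no comparison had a called gene by edgeR, among the 39 or among all 16615 genes tested. The 3 comparisons with vehicle share its 3 tumours. For the low dose against vehicle 0% of all genes were called, and none of the 39 had an unadjusted p under 0.05. The medians were −0.57 for enzymes and −0.76 for other targets, and the members with the smallest p were Slc2a3, with a change of −1.01 ± 0.48 (edgeR adjusted p = 0.44), and Car12, with −2.02 ± 1.09 (edgeR adjusted p = 0.509). For anti-PD1 against vehicle (0% of all genes called, no member with an unadjusted p under 0.05) the medians were −0.22 and −0.87, with a change of −0.85 ± 0.44 for Hif1a and −1.76 ± 0.91 for Egln3 (edgeR adjusted p = 0.423 and 0.427). For the combination against vehicle (0% called, 3 members with an unadjusted p under 0.05) the medians were −0.25 and −0.84. Bnip3l had a change of −1.0 ± 0.43 and Ddit4, an inhibitor of mTOR signalling, of −1.82 ± 0.80 (edgeR adjusted p = 0.58 and 0.589). Below all vehicle tumours in the combination lay 4 genes (Ankrd37, Bnip3l, Kdm3a, Pdk1), against 8.11% of all genes. Above them lay Pfkfb4, as did 1592 of all 16615 genes. For the combination against anti-PD1 alone (0% called, no member with an unadjusted p under 0.05) the medians were 0.00 and 0.16, and the smallest p were those of Hif1a (0.90 ± 0.44, edgeR adjusted p = 0.606) and Hk1 (0.72 ± 0.54, edgeR adjusted p = 0.756). The count of calls by DESeq2 and by voom among the 39 was 0 in each of the 4 comparisons. Over all 16615 genes DESeq2 called 425 at the low dose, 614 with anti-PD1, 150 in the combination and 210 for the combination against anti-PD1, and voom 0 in each. An unadjusted p under 0.05 by edgeR was found for 1964, 2269, 1362 and 1443 of all genes in that order. Hepatocyte markers had a median change of −1.59 at the low dose, −2.26 with anti-PD1 and 0.14 in the combination, with no call. The mean log2 CPM of the 12 endothelial markers was 4.17 to 4.63 in vehicle, above the 2.74 to 3.78 at the low dose, 3.68 to 3.91 with anti-PD1 and 3.47 to 3.90 in the combination. That of the erythrocyte markers averaged 2.92 in vehicle and 0.85, 0.82 and 1.01 in the treated groups in that order. For the neutrophil markers the means were 2.27 in vehicle and 0.24, 0.86 and 1.5, and their low dose tumours (−0.30 to 1.03) lay below all vehicle tumours (1.09 to 2.97). None of these lists had a call. The part of these cell types was not tested.

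These medians moved when single tumours were left out. Vehicle replicate 3 was the highest of the 12 tumours for 29 of the 39 genes. Low dose replicate 2 was the lowest for 19 and had the lowest TMM factor of the experiment (0.867), with 0.312% mitochondrial counts. For Egln3 the vehicle tumours measured 4.04, 3.01 and 6.41, the low dose 4.98, 3.03 and 4.47, anti-PD1 2.55, 2.06 and 4.50 and the combination 3.40, 4.91 and 5.0. For Slc2a1 they measured 6.93, 6.83 and 9.35 in vehicle, 7.80, 6.12 and 7.27 at the low dose, 6.22, 6.33 and 8.49 with anti-PD1 and 7.16, 7.39 and 7.67 in the combination. Vehicle replicate 3 and anti-PD1 replicate 3 were thus above the other tumours of their groups for both genes. Without vehicle replicate 3 the medians of enzymes and other targets were −0.02 and −0.35 at the low dose, 0.32 and −0.30 with anti-PD1, and 0.29 and −0.14 in the combination. Without anti-PD1 replicate 3 they were −0.65 and −1.97 for anti-PD1 against vehicle, and 0.50 and 1.08 for the combination against anti-PD1, which became −0.23 and −0.25 without anti-PD1 replicate 1. Without vehicle replicate 1 they were −0.77 and −1.10 at the low dose and −0.48 and −1.16 in the combination. Single genes moved as well. The Egln3 change with anti-PD1 was −0.17 without vehicle replicate 3 and −2.88 without anti-PD1 replicate 3, and the Car12 change at the low dose was −0.46 without vehicle replicate 3 and −2.64 without low dose replicate 1. In the same 2 fits that of Slc2a3 at the low dose was −0.33 and −1.38. In the combination the change was −1.26 for Bnip3l and −2.27 for Ddit4 without vehicle replicate 1, and −0.56 and −0.79 without vehicle replicate 2. The Hif1a change against anti-PD1 was 0.26 without combination replicate 3 and 1.25 without combination replicate 1, and that of Hk1 was 0.46 without combination replicate 3.

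**Figure D5:**
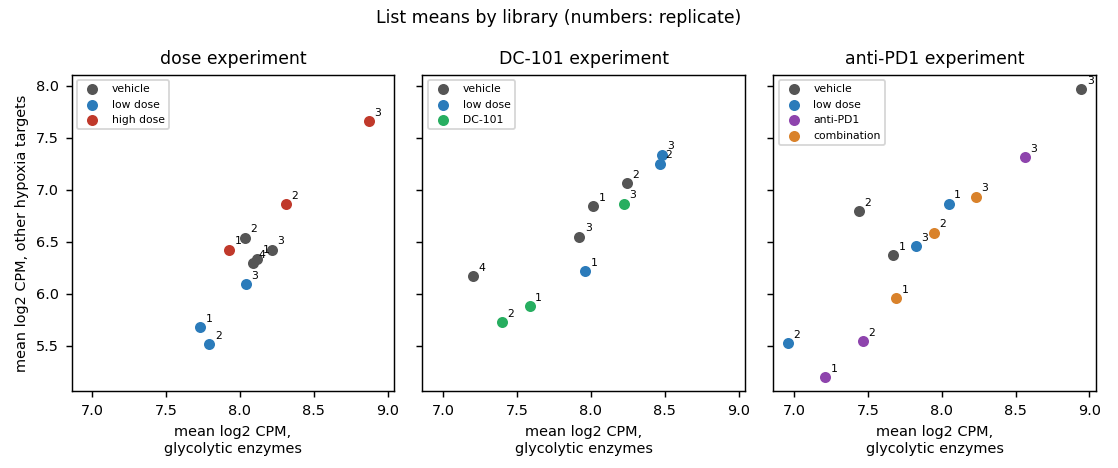
Mean log2 CPM of the 18 other hypoxia targets (vertical axis) against that of the 15 glycolytic enzymes (horizontal axis), 1 point a tumour, in each of the 3 experiments. The other targets reach 7.66 in the highest high dose tumour and 7.97 in the highest vehicle tumour of the anti-PD1 experiment.

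By tumour, the mean level of the 18 other hypoxia targets in the dose experiment was 6.34, 6.54, 6.42 and 6.30 in vehicle, 5.68, 5.51 and 6.09 at the low dose and 6.42, 6.86 and 7.66 at the high dose. That of the 15 enzymes was 8.12, 8.04, 8.22 and 8.09 in vehicle, 7.73, 7.79 and 8.04 at the low dose and 7.93, 8.31 and 8.87 at the high dose. Vehicle tumours were close together for both lists, and the high dose tumours were spread over more than 1 log2 unit for the other targets. In the DC-101 experiment the vehicle tumours themselves ran from 6.17 to 7.07 for the other targets, and in the anti-PD1 experiment from 6.37 to 7.97.

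The low dose was the 1 treatment given in all 3 experiments, and a fit over the vehicle and low dose tumours of all 3 had the experiment as a term. None of the 39 genes was called by edgeR, 6 had an unadjusted p under 0.05, DESeq2 called 1, Kdm3a, and voom 0, while 1.72% of all 15562 genes were called. Over all genes 2471 had an unadjusted p under 0.05, DESeq2 called 892 and voom 310. Kdm3a had the smallest p with a change of −0.45 ± 0.13 (edgeR adjusted p = 0.0709), followed by Mxi1, a repressor of Myc target genes, with −0.48 ± 0.19 (edgeR adjusted p = 0.215). The medians were −0.13 for enzymes and −0.33 for other targets, and 0.02 over all genes. Leaving out 1 tumour moved them between −0.20 and 0.07 and between −0.47 and −0.07, with both highest values in the fit that left out the p101 vehicle tumour replicate 3. Without the anti-PD1 experiment they were 0.08 and −0.11, without the DC-101 experiment −0.40 and −0.67, and without the dose experiment −0.05 and −0.23. Within the experiments the medians were −0.22 and −0.44 (dose experiment), 0.42 and 0.29 (DC-101 experiment) and −0.57 and −0.76 (anti-PD1 experiment), so that the signs were not the same in all 3. A test of the difference between the experiments called no member and 0% of all genes, with 4 members (Ldha, Higd1a, Pgk1, Bnip3) at an unadjusted p under 0.05 and a lowest adjusted p of 0.469 by edgeR, while 1481 of all 15562 genes had an unadjusted p under 0.05. In the same fit 9 of 12 endothelial markers fell, and 1 of 10 macrophage markers rose.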

How the data were processed

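RNA was measured in 32 tumours with the TruSeq Stranded mRNA kit. The authors trimmed reads with cutadapt 2.4, aligned them to GRCm38 with STAR 2.7.2a and deposited the raw read counts per gene in 1 table for each experiment, without normalization (tools and versions as in the submitters' processing notes). Which strand column of the STAR counts was taken is not given in the sources used here. Symbols and coordinates were matched for 54409 of 54446 gene identifiers (99.93%).

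From these deposited counts, 1 model per experiment, over all its groups, was run in edgeR 4.0.16 (R 4.3.3). It used filterByExpr (minimum count 10, minimum total 15), TMM scaling, the 2-sided robust quasi-likelihood F-test and Benjamini-Hochberg adjustment over all genes tested, with a threshold of 0.05. Log2 CPM used a prior count of 2. The alternatives were other scalings, filters, the hepatocyte level as a covariate, a replicate block, the groups compared alone, leaving out each tumour, DESeq2 1.42.0 and voom of limma 3.58.1. Scripts were tested on simulated data. Libraries of a group were compared for duplication (36 pairs, chi-square per degree of freedom 13.1 to 900.0), and none was counted as a duplicate. Near-identical copies (at least 95% identity over 200 bases) were searched with blastn 2.17.0 among the annotated transcripts of other genes. Genes that lie at the same place as a member were not left out of the search. Cell type content was read from 8 marker lists.

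The 39 members and the lists were chosen with earlier results of these data known. Per comparison, the text names the members past the threshold, or the 2 with the smallest unadjusted p where none was, and gives levels of Slc2a1, Hk2, Ldha, Pgk1, Gapdh, Car9, Bnip3, Egln3, Adm, Ndrg1 and Hif1a. Other members were named after their values were seen, and a few genes of the related lists are not reported here by name. Total counts limit the precision of single values, and reads without molecular identifiers are not independent molecules.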

Additional observations from a re-analysis of the deposited data

Results flagged for a closer look

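Single vehicle tumours stood apart from the other 3 of their group by Dixon's test (95% level) in 9 of 78 member and group combinations (11.5%). For independent values chance gives about 1 in 20. Genes of the same tumours are not independent, so no excess over chance can be read. In the dose experiment, vehicle replicate 2 was high for Bnip3l (6.97 log2 CPM, others 6.65 to 6.69), Ero1l (7.34, others 6.52 to 6.59) and Higd1a (5.31, others 5.20 to 5.21). Replicate 1 was low for Egln3 (3.07, others 3.84 to 3.94), and replicate 4 was low for Mxi1 (6.30, others 6.64 to 6.70). In the DC-101 experiment, vehicle replicate 4 was low for Slc16a3 (4.42, others 5.66 to 5.80) and Hk2 (5.50, others 6.65 to 6.81). Replicate 1 was high for Slc2a3 (4.20, others 3.22 to 3.32), and replicate 2 was high for Lox (10.27, others 9.62 to 9.72).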

How the results depend on the processing

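The number of members past the threshold depended on the processing at the high dose. Against vehicle it was 7, and it became 2 with scaling by total count, 16 with DESeq2, 3 with voom, 2 without a filter, 2 with the hepatocyte level as a covariate, 0 with the groups compared alone and 0 with the replicate block, while DESeq2's size factors and a stricter filter gave 7 each. Over all genes the count was 2582 of 16525, and it became 283 with scaling by total count, 5275 with DESeq2, 1349 with voom, 416 of 31010 without a filter, 162 with the hepatocyte level, 4 with the groups alone and 1 with the block. DESeq2's size factors gave 2369 and the stricter filter 1898 of 13687. Against the low dose it was 10, and it became 2 with scaling by total count, 18 with DESeq2, 6 without a filter, 0 with the groups compared alone and 0 with the replicate block, and 9 to 12 with the others. Over all genes it was 697, and 196, 3059, 309, 0 and 1 in the same order. The others called 660 with DESeq2's size factors, 782 with voom, 647 of 13687 with the stricter filter and 595 with the hepatocyte level. Scaling by total count moved the median of all genes to −0.13 against vehicle and −0.09 against the low dose. At the low dose in the dose experiment DESeq2 and the groups alone called 1 member each, and DESeq2 called 1 for DC-101 and 1 for the low dose over all experiments, in place of 0. Over all genes the groups alone called 75 of 15798 at this low dose. DESeq2 called 85 of 16525, 373 of 16138 and 892 of 15562 in the order given. Leaving out 1 tumour gave 0 to 8 member calls against vehicle, 1 to 14 against the low dose and 0 to 1 for the low dose over all experiments. Counts over all genes in these fits are not given here. Leaving out 1 tumour moved the enzyme median between −0.17 and 0.44 at the high dose against vehicle. The median of the other targets ran between −0.66 and −0.32 at the low dose of the dose experiment, 0.71 and 1.57 for the high against the low dose, −1.97 and −0.30 for anti-PD1, −1.16 and −0.14 for the combination, and −0.25 and 1.08 for the combination against anti-PD1. Of the named genes' results, 248 kept their side of the threshold, 67 lost it, 4 gained it and 0 reversed. Of the list medians and counts, 292 stayed within the limits set and 16 did not. The cause was not tested. Whether the replicate numbers pair tumours was not settled. With a correlation over 0.1 counted as deviating together, tumours of 1 number did so in 2 of 9 pairs in the dose experiment. With DC-101 it was 4 of 9 and with anti-PD1 6 of 18. Replicate 3 of the DC-101 experiment did so in every pair of groups (0.45, 0.67 and 0.63). Tumours of different numbers were not compared in this way, so these correlations cannot decide it. The depth gave every member counts in every library.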

Other observations

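Vehicle tumours of the 3 experiments had unequal mean levels of some abundant enzymes, in tables that were normalized separately, and no test of this was made. The mean log2 CPM of Pgk1 was 9.23 in the vehicle group of batch p112, 7.57 in that of p103 and 8.18 in that of p101, and that of Pgam1, phosphoglycerate mutase, was 8.10, 6.64 and 6.87. Gapdh averaged 10.59, 9.41 and 9.74 and Eno1 9.58, 8.67 and 8.73 in the same order. All 4 genes have near-identical sequence in other annotated genes, as do 9 other members. Among the 9, Ldha (−0.15 in p103 and 0.39 in p101 against p112), Pkm (0.01 and 0.25), Tpi1 (0.00 and 0.19) and Gpi1 (−0.07 and 0.31) did not differ by as much. Ndrg1 differed by 0.48 and 0.95 and Bnip3 by −0.46 and 0.75. For Pfkp and Ndrg1 the only match was not a pseudogene (Pitrm1 and Gm17035). Members without such sequence also differed, as did Ddit4 (0.83 and 1.78), Eno2 (0.99 and 0.90) and Ankrd37 (0.73 and 1.32). Whether reads were assigned in the same way in the 3 tables was not tested. Adm, for which no near-identical sequence was found, was higher than in p112 by 1.14 in p103 and by 1.80 in p101.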
